A study of Mus musculus with 3 samples.

Results

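Cycling fibroblasts of the Day 7 wound were the 344 cells that carried a sum of 6 or more UMIs (molecular tags that let each captured mRNA be counted once) of *Mki67*, *Top2a*, *Birc5*, *Ube2c* and *Cenpf*. They were 344 of the 6399 cells that passed a fibroblast gate, of 22924 barcodes in the Day 7 library and of 44693 barcodes in the series. The gate asked for at least 2000 UMIs, at most 10% of UMIs from mitochondrial genes, at least 1.5% from *Dcn*, *Lum*, *Pdgfra*, *Col6a1*, *Col6a2*, *Col5a1*, *Pcolce* and *Col1a2*, under 0.3% from *Lyz2*, *Tyrobp*, *Fcer1g* and *S100a9*, and under 0.15% from *Acta2*. The reference was the 5816 gated cells with 0 or 1 UMI of the same 5 genes, and the 239 cells in between were left out.

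Each library held cells of skin wounds from C57BL/6J mice, an inbred strain, taken on Day 3, 7 or 14 after injury, with no genetic change, no drug and no sorting of cells. By the methods these were male mice aged 7 to 12 weeks with full-thickness punch wounds of the back, whereas the text deposited with the series calls the wounds incisional. Tissue of 4 samples was pooled into each library, and there was 1 library a day, so nothing below carries a test. Intervals are exact, at 95%, and cover counting error only. Levels are CPM, the UMIs of a gene per 1000000 UMIs summed over a group of cells, and ratios are the log2 of cycling over reference CPM.

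A cell that divides copies its DNA in S phase and parts the copies in mitosis. Factors of the E2F family drive the genes for replication and nucleotide supply at the entry to S phase, and the MuvB complex with B-MYB and FOXM1 drives the genes for the spindle, the kinetochore and cytokinesis later on, often through a promoter element called CHR and through CCAAT boxes bound by NF-Y. In a skin wound, fibroblasts divide while granulation tissue fills the defect, and they also lay down its collagen. KI-67 (*Mki67*) coats mitotic chromosomes, topoisomerase II alpha (*Top2a*) untangles DNA, survivin (*Birc5*) belongs to the chromosomal passenger complex, UBE2C feeds the anaphase-promoting complex, and CENP-F sits at the kinetochore.

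The promoters of the genes that define these cells are shown so that the elements named above can be seen where they occur. The windows run from 250 bases before to 50 after the transcription start, as RefSeq places them on GRCm38.p6, and are written 5′ to 3′ on the gene's own strand. Capitals mark CHR, read as TTTGAA and also as TTCGAA, the CCAAT box, and E2F, read as TTCCCGC and also as TTGGCGC, further as TTCGCGC and lastly as TTGCCGC, each searched on both strands. *Mki67* lies on the minus strand at chr7:135716330-135716629, *Top2a* on the minus strand at chr11:99024140-99024439, *Birc5* on the plus strand at chr11:117848987-117849286, *Ube2c* on the plus strand at chr2:164769679-164769978, *Cenpf* on the minus strand at chr1:189688037-189688336 and the replication gene *Pclaf* on the plus strand at chr9:65890073-65890372.
Mki67: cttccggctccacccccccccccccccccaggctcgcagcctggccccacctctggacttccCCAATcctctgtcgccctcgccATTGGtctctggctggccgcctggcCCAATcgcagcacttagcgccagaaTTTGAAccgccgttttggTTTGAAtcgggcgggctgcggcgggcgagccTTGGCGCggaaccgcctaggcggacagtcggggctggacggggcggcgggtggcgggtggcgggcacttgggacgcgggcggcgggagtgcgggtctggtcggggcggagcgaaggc
Top2a: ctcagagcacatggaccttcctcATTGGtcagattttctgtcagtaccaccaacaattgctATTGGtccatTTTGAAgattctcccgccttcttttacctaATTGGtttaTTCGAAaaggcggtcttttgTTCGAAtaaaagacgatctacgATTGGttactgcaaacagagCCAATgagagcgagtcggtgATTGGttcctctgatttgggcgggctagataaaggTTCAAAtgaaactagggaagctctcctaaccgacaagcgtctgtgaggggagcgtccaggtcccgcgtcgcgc
Birc5: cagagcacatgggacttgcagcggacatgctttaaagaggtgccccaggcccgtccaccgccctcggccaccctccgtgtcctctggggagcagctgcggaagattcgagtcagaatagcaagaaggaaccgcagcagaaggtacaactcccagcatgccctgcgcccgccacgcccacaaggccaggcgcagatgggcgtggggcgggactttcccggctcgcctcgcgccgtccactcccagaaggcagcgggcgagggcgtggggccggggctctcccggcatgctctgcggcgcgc
Ube2c: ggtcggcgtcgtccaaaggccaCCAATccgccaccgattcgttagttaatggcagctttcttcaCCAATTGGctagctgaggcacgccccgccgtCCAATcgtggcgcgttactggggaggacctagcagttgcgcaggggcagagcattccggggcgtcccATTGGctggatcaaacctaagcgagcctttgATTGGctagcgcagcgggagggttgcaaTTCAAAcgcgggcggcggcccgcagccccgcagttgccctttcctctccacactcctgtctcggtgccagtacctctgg
Cenpf: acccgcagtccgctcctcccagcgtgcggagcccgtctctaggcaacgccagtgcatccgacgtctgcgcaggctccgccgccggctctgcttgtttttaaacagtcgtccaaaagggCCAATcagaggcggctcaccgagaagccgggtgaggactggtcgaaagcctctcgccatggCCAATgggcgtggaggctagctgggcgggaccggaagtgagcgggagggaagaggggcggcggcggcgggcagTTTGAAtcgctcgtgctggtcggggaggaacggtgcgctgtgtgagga
Pclaf: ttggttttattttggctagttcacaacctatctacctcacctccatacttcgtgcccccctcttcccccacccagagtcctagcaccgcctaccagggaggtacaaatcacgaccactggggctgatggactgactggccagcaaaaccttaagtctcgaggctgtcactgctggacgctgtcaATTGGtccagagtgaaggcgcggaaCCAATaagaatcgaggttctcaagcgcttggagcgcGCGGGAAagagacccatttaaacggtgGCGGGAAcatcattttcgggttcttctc

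CHR matched in 4 of these 5 windows of defining genes and CCAAT in the same number, *Birc5* holding neither. *Top2a* held 4 CHR and 6 CCAAT matches, *Ube2c* 1 and 6, *Mki67* 2 and 3, and *Cenpf* 1 and 2, its CHR lying just after the start. The *Pclaf* window held 2 E2F matches and no CHR. The windows of 2 other replication genes, *Pcna* and *Slbp*, held neither E2F nor CHR, with 1 and 3 CCAAT matches. Across the 71 windows of the kinetochore, spindle and mitotic kinase lists CHR was found in 64.8% and E2F in 18.3%, whereas over all 32851 windows of the table the shares were 19.2% and 9.57%. The 31 windows of the replication list had the opposite pattern, with CHR in 19.4% and E2F in 67.7%. CCAAT was found in 71.8% of the mitotic and 64.5% of the replication windows, beside 37.4% of all windows. CHR and CCAAT stood together in 50.7% of the mitotic windows, 16.1% of the replication windows and 7.52% of all. By comparison, the 25 windows of matrix genes held CHR in 28.0%, CCAAT in 32.0% and E2F in 2 windows. CCAAT and E2F matches overlapped in 148 of all windows and CHR and CCAAT in 48. A match describes letters only and is not a bound site.

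The sum of the 5 genes spread over a wide range. Of the gated cells, 5210 had no UMI of them, 606 had 1, 177 had 2 or 3, 62 had 4 or 5, 46 had 6 or 7, and 171 had 20 or more. The cells just outside the limit (4 or 5 UMIs) had a median of 11358 UMIs in all, and those just inside (6 or 7) a median of 12832. Among the cycling cells *Mki67* was found in 96.8%, *Birc5* in 91.6%, *Top2a* in 84.6%, *Ube2c* in 80.8% and *Cenpf* in 74.7%. In gated macrophages with a 5-gene sum of 0 or 1, a limit that caps these shares so that they do not measure stray RNA, the same genes were found in 4.56%, 0.468%, 2.47%, 0.955% and 0.292%, at a median of 3393 UMIs a cell against 15087.5 in the cycling fibroblasts. All 5 genes were detected in 181 of the 344 cells (52.6%) and 4 of them in another 92. These values chose the cells and are given as a description.

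Cycling fibroblasts held more RNA molecules than the others. They had a median of 15087.5 UMIs (lowest 2141, highest 39328) and 3904.5 genes, against 10260.5 UMIs and 2817 genes in the reference. Their mitochondrial share was alike, 2.29% against 2.45%, and the 8 fibroblast genes of the gate took 3.36% of their UMIs against 4.20%. The cycling share was 1.8% in each of the lower 2 of 5 equal depth classes of gated cells, 2.82% and 4.84% in the next ones, and 15.6% (13.7 to 17.7) in the deepest class. As a share of all UMIs, which has no such limit, the 5 genes took 0.00606%, 0.00411%, 0.00638%, 0.0112% and 0.0337% from the lowest to the deepest class. A sum of UMIs is reached more easily in a deep cell, and a cell with duplicated DNA may hold more RNA. The part of each was not tested.

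**Figure D1:**
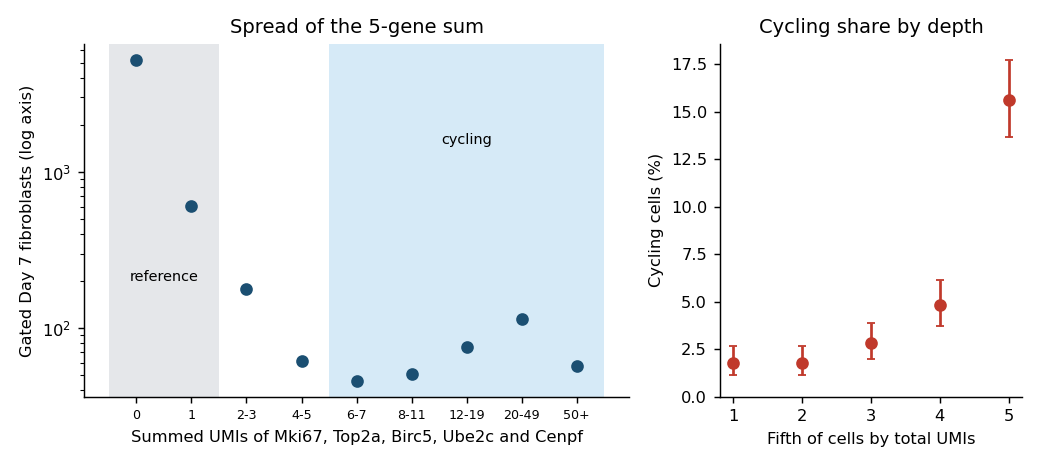
Left, number of gated Day 7 fibroblasts (log axis) by their summed UMIs of the 5 cycle genes, in classes of unequal width, with the reference shaded grey and the cycling cells blue. Right, percentage of cycling cells in each of 5 equal classes of cells by total UMIs, from lowest to highest, with exact 95% intervals. The deepest class stands at 15.6%.

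Marker lists describe what the gate held. The 14 fibroblast markers took 2.303% to 11.9% of a cell's UMIs with a median of 6.45%, and 8 of them are genes that the gate requires, so no cell could be at 0. The 6 fibroblast markers outside the gate took 0.701% to 6.27% with a median of 3.08%, and no cell was at 0. The 14 macrophage markers took a median of 0.0448%, with 4 cells at 0 and a highest cell of 1.90%, and their summed level was 1360 CPM against 1433 in the reference. The gate caps 3 of them, and the 11 others summed to 1060 CPM against 1139. *Lyz2*, a myeloid gene that the gate limits, stood at 165 CPM in cycling and 164 in reference cells, and *C1qa*, a complement gene of macrophages, at 85.3 and 86.6. Of the 8 other lists 4 were higher and 4 lower in the cycling cells. Endothelial markers summed to 36.7 against 19.5 CPM, with 284 of the 344 cells at 0, and epithelial markers to 51.7 against 25.05 CPM, with 266 at 0. T cell markers summed to 4.98 against 1.57 CPM with 334 cells at 0, mast cell markers to 3.32 against 1.00 with 338 at 0, dendritic cell markers to 6.46 against 6.95, neutrophil markers, 1 of which the gate caps, to 136 against 149, pericyte markers to 49.8 against 70.2 and Schwann cell markers to 5.72 against 12.9. A doublet score, made by simulating mixed droplets, called 98 of the 344 cycling cells (28.5%) and 841 of the 6399 gated cells (13.1%). Values without the called cells are given for some of the genes and counts only, and the shares by fibroblast state and the groups along the cycle were not computed without them. The transcript *Gm42418*, which overlaps ribosomal RNA, took 6.82% of UMIs in cycling and 9.48% in reference cells. Day 7 shared 43 barcodes with Day 3 and 111 with Day 14, and no barcode was a cycling fibroblast in 2 libraries.

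The share of cycling fibroblasts was lower in each later library. The same gate and limit gave 157 of 363 fibroblasts on Day 3, or 43.3% (38.1 to 48.5), 344 of 6399 on Day 7, or 5.38% (4.84 to 5.96), and 49 of 7180 on Day 14, or 0.682% (0.505 to 0.901). Here and below the intervals cover the counting of cells within 1 library, not the spread between libraries or animals. Whether they overlap does not compare days. Day 3 fibroblasts were far deeper, with a median of 45643 UMIs against 10458 and 10574. After every cell was thinned to 2000 UMIs, the shares with at least 1 UMI of the 5 genes were 35.3%, 8.05% and 1.63%. After thinning to 5000, which 357, 5934 and 6425 cells reached, the shares with at least 2 UMIs were 31.7% (26.9 to 36.8), 6.79% (6.16 to 7.46) and 0.965% (0.741 to 1.24). The order of the libraries was the same each time, and Day 3 stood 4.66-fold above Day 7 after thinning to 5000 against 8.05-fold before. Without the cells called doublets the shares were 42.2%, 4.43% and 0.364%; of the 49 cells of Day 14, 25 had been called.

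Fibroblasts with more *Acta2*, the smooth muscle actin of myofibroblasts, passed the cycling limit more often on Day 7. Of the 323 cells that met the gate but held 0.15% or more of their UMIs as *Acta2*, 61 passed the cycling limit, or 18.9% (14.8 to 23.6), against 5.38% below that level. After thinning to 5000 UMIs the shares were 24.9% (20.2 to 30.1) and 6.79%. Such cells were deeper, with a median of 12307 against 10458 UMIs. Only 4 of them were found on Day 3, 2 of them cycling, and 16 on Day 14, 1 of them cycling, so the other libraries cannot be read for this.

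In macrophages the share was highest on Day 14. Of gated macrophages, the same limit was passed by 1 of 1104 cells (0.0906%) on Day 3, by 38 of 5259 (0.723%) on Day 7 and by 69 of 2435 (2.83%) on Day 14. Thinned to 5000 UMIs, which only the deepest macrophages reach, the shares were 1.33% (0.611 to 2.51) of 676 cells, 5.88% (4.48 to 7.55) of 970 and 10.4% (8.43 to 12.6) of 888. At this depth the Day 7 share of fibroblasts was 6.79% (6.16 to 7.46), and the difference was not tested. At 2000 UMIs, which every gated macrophage reaches, the shares were 3.17% (2.22 to 4.38), 6.16% (5.53 to 6.84) and 7.56% (6.54 to 8.68). Days 7 and 14 stood closer together at this depth, and the difference between days was not tested. The Day 7 share at that depth lay below the 8.05% (7.39 to 8.74) of fibroblasts.

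**Figure D2:**
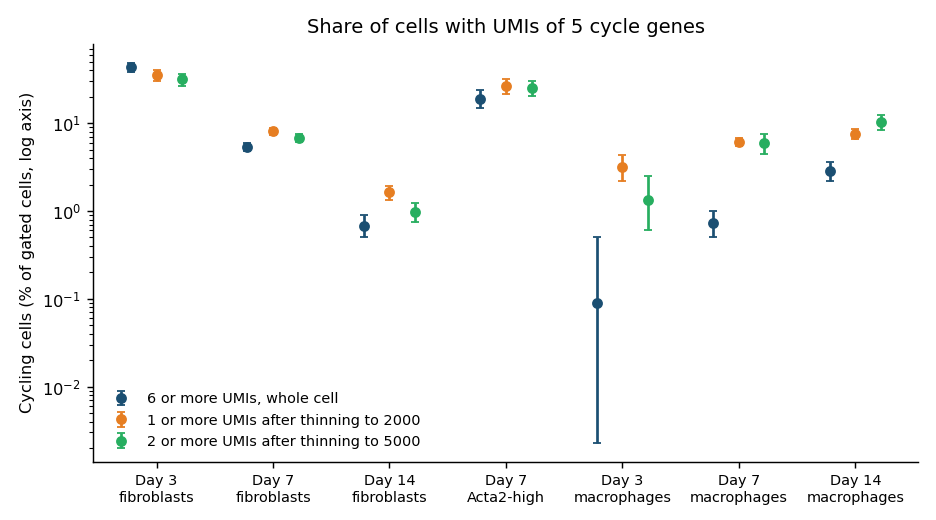
Percentage of cycling cells (log axis) among gated fibroblasts of Days 3, 7 and 14, *Acta2*-high fibroblasts of Day 7 and macrophages of the 3 days, by the whole-cell limit and after thinning to 2000 or 5000 UMIs; bars are exact 95% intervals. The fibroblast points step down from 43.3% to 5.38% and 0.682%, and the macrophage points step up.

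Across the genes, 5582 had a mean of at least 20 CPM over the 2 groups, and 302 of them (5.41%) stood at least 2-fold higher and 89 (1.59%) at least 2-fold lower in the cycling cells. With ratios centred on their median, which was 0.17 here, the split was 228 higher and 136 lower. With the reference weighted to the depth of the cycling cells it was 253 higher and 48 lower, sharing 45 of the 89, and without called doublets 354 higher and 141 lower. Of the 302 genes, 108 belonged to 1 of the 10 cycle lists, 5 more were the defining genes and 95 in all were at least 8-fold higher. A cycle gene can pass the level limit through the cycling cells alone, so the lists are described over every listed gene. Without a level limit, 6500 of the 20223 genes with a UMI (32.1%) were at least 2-fold higher and 730 (3.61%) at least 2-fold lower. These shares belong beside each count of listed genes below that names no level limit. Genes expressed together with the 5 defining genes follow the choice of cells, and their values describe the cells without testing anything. A ratio compares cells of 1 library, and UMIs of 1 cell are not independent.

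Genes of mitosis stood furthest from the reference. All 27 kinetochore genes were at least 2-fold higher, with a median log2 ratio of 5.51 and a summed level of 1514 CPM against 66.7. All 30 spindle genes were higher too, at 5053 against 627 CPM and a median of 6.30, and so were 18 of 20 mitotic kinases, passenger and anaphase-promoting complex genes, at 1565 against 204 CPM and a median of 5.65. The median was 0.17 over all tested genes and 0.36 over every gene with a UMI. *Pbk*, a mitotic kinase, had the highest ratio of any tested gene, 81.6 CPM (74.1 to 89.5) against 0.129 (0.0558 to 0.255), a log2 ratio of 9.30. *Hmmr*, a spindle assembly factor, stood at 121 against 0.340 CPM (8.47), the microtubule-depolymerising kinesin *Kif2c* at 53.5 against 0.178 (8.23), the spindle motor *Kif11* at 107 against 0.534 (7.65), *Aspm* of the spindle pole at 93.8 against 0.485 (7.59) and *Nusap1*, which bundles spindle microtubules, at 139 against 0.744 (7.55). *Plk1*, the polo-like kinase of mitotic entry, stood at 66.4 against 0.340 (7.61). Each of these genes was under 1 CPM in the reference. With 8 UMIs there, the ratio of *Pbk* lay between 8.79 and 10.1 under the alternatives of processing. That of *Kif2c*, with 11, lay between 7.71 and 9.03. Tubulin *Tubb5* was well detected in both, at 1367 against 332 CPM, and its log2 ratio was 2.04. *Pttg1*, securin, did not follow its list, at 27.3 against 26.1 CPM.

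Of the genes highest by size, the linker histone *Hist1h1b* stood at 302 against 1.10 CPM (8.10), *Hist1h3c* at 87.8 against 0.453 (7.60) and *Hist1h2ap* at 87.1 against 0.485 (7.49). Histone genes of these clusters are near copies of each other, so the split of reads among them is uncertain. *Mxd3*, a partner of MAX, stood at 46.5 against 0.178 CPM (8.03), and *Pimreg* at 40.0 against 0.178 (7.81).

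Replication genes were higher by less. Of 32 listed genes 31 were at least 2-fold higher, beside 32.1% of all genes without a level limit. The list stood at 1448 against 265 CPM, with a median of 2.41. *Pclaf*, the PCNA clamp-associated factor whose promoter is shown above, stood apart at 282 against 1.92 CPM (7.19) and was found in 86.6% of the cycling cells. At 5000 UMIs *Pclaf* was found in 67.4% of cycling, 0.745% of reference and 0.783% of macrophage reference cells. *Pcna*, the sliding clamp itself, stood at 131 against 36.8 CPM (1.83), the helicase subunit *Mcm5* at 36.5 against 2.70 (3.76), DNA ligase *Lig1* at 98.5 against 11.4 (3.11) and *Slbp*, which binds histone mRNA, at 74.4 against 29.0 (1.36). *Ung*, which removes uracil from DNA, was the exception at 9.60 against 6.65 (0.53). In nucleotide supply 7 of 12 genes were 2-fold higher, beside the same 32.1% of all genes, and the list divided by pathway. The genes for deoxynucleotides were the higher ones, thymidine kinase *Tk1* at 66.6 against 0.679 CPM (6.62), *Rrm2* of ribonucleotide reductase at 49.8 against 3.40 (3.88) and thymidylate synthase *Tyms* at a ratio of 3.23. The purine and pyrimidine genes *Paics*, *Gart*, *Cad*, *Impdh2* and *Umps* lay between 0.54 and 0.76.

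Cyclins parted by phase. *Ccna2*, cyclin A, stood at 104 against 0.469 CPM (7.80), *Ccnb1* at 107 against 0.954 (6.81) and *Ccnb2* at 91.2 against 1.88 (5.60), with their partner *Cdk1* at 183 against 5.51 (5.05). Cyclin E genes were lower in level, *Ccne2* at 34.7 against 2.94 (3.56) and *Ccne1* at 14.9 against 5.03 (1.57). The D cyclins, which answer to growth signals in G1, lay near or below the reference: *Ccnd1* stood at 23.6 CPM (19.7 to 28.1) against 20.6, *Ccnd3* at 34.9 against 34.3 and *Ccnd2* at 124 against 201, a log2 ratio of −0.70. The signs of *Ccnd1* and *Ccnd3* turned with the processing and that of *Ccnd2* did not.

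Inhibitors of the cycle summed to 1829 against 1928 CPM. The p15, p18 and p19 genes were among the higher members, with *Cdkn2c* (p18) at 59.2 against 11.01 CPM (2.43), *Cdkn2d* (p19) at 80.6 against 16.7 (2.27) and *Cdkn2b* (p15) at 11.996 against 5.95 (1.01, under 2-fold in 8 of 11 alternatives), and the pocket protein gene *Rbl1* at 26.2 against 5.45 (2.27). The p21 gene *Cdkn1a*, a target of p53, stood at 238 CPM in cycling and 229 in reference cells, and p27 (*Cdkn1b*) at 80.8 and 71.2. *Cdkn1c*, the imprinted p57 gene, was lower at 59.4 CPM (53.1 to 66.3) against 145, a log2 ratio of −1.29 that lay between −1.46 and −1.16 under every processing tried. No listed inhibitor was at least 2-fold lower on Day 3 or 14, or in *Acta2*-high fibroblasts or macrophages of Day 7. Of the cycle transcription factors 10 of 12 were at least 2-fold higher, beside 32.1% of all genes without a level limit. They ran from *E2f1* at 30.5 against 14.1 CPM (1.11, under 2-fold in 5 of 11 alternatives) to *Foxm1* at 46.7 against 1.31 (5.16) and *Mybl2*, the B-MYB gene, at 13.7 against 0.372 (5.20). *Myc* was not 2-fold higher, at 103 against 133 CPM. *Mycn* entered the count at a ratio of 3.51 with under 10 UMIs over both groups.

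All 30 chromatin genes were at least 2-fold higher, at 5710 against 1207 CPM and a median of 2.74. The histone variant *H2afz* gave the most UMIs, 1126 against 244 CPM (2.21), then the DNA-bending *Hmgb1* at 956 against 309 (1.63) and *Hmgb2* at 560 against 33.5 (4.07). The condensin subunit *Ncapg* had the highest ratio of the list, 56.1 against 0.437 CPM (7.01). DNA repair genes were low in level, 429 against 71.4 CPM over 22 genes. Of these, 20 were at least 2-fold higher, beside 32.1% of all genes without a level limit. *Brca1* stood at 22.1 against 0.453 CPM (5.61).

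**Figure D3:**
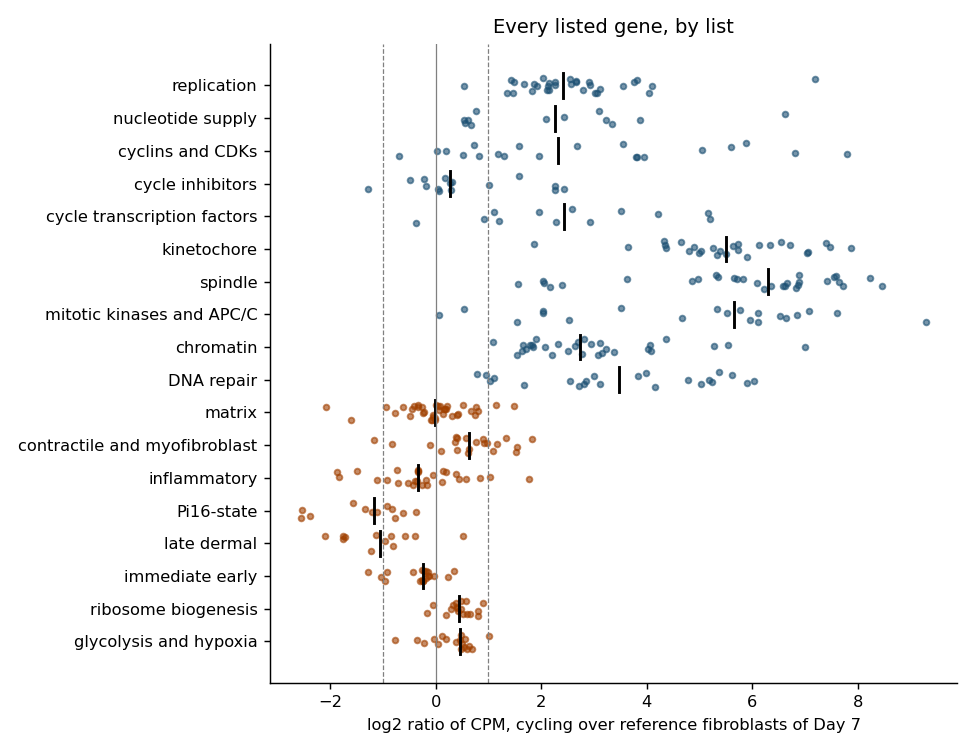
Log2 ratio of CPM in cycling over reference fibroblasts of Day 7 for every listed gene, 1 point a gene, with cycle lists in blue, other lists in brown, a black bar at each median and dashed lines at 2-fold. Kinetochore, spindle and mitotic kinase medians stand at 5.51, 6.30 and 5.65, and matrix genes lie around 0.

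Outside the cycle, genes of the *Pi16* state, a fibroblast of fascia and adventitia described as a reservoir, were lower. All 12 listed genes stood below the reference, with a summed level of 1966 against 3846 CPM and a median of −1.16. At least 2-fold lower were 7 of them, beside 3.61% of all genes without a level limit. *Pi16* itself stood at 52.6 CPM (46.7 to 59.1) against 307 (302 to 311), a log2 ratio of −2.54. The ferritin receptor gene *Scara5* stood at 14.0 against 82.1 (−2.55), *Clec3b*, tetranectin, at 135 against 398 (−1.56), the protease *Dpp4* at 60.2 against 139 (−1.21) and *Cd55*, which shields cells from complement, at 94.3 against 204 (−1.11). At 5000 UMIs a cell, *Pi16* was found in 11.6% of cycling, 41.8% of reference and 4.92% of macrophage reference cells. With a reference weighted to the depth of the cycling cells the ratio of *Pi16* was −1.998, and without called doublets it was −3.65. *Scara5* stood at −1.87 and −3.19 in the same order, while *Dpp4* and *Cd55* were under 2-fold against the depth-weighted reference. Genes of late dermal fibroblasts went with them: 11 of 12 were lower, at 1229 against 2346 CPM, and 6 at least 2-fold, beside 3.61% of all genes without a level limit. Among the 6 were *Pcolce2*, which enhances procollagen processing (13.5 against 57.9 CPM, −2.10), the AXL ligand *Gas6* (48.9 against 165, −1.75) and *Smoc2* (43.2 against 143, −1.73). The depth-weighted ratio of *Pcolce2* was −1.38. *Ppp1r14a* of that list had no UMI in the cycling cells and entered the count at the limit of 3 UMIs.

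Other genes among the 15 lowest by size lay outside these lists. *Edn1*, endothelin, stood at 5.54 against 35.7 CPM (−2.69), *Procr*, the protein C receptor, at 14.6 against 59.6 (−2.03), *Ace*, which makes angiotensin II, at 45.4 against 183 (−2.01), the ectonucleotidase *Entpd2* at 17.3 against 68.2 (−1.98) and the lipopolysaccharide-binding protein *Lbp* at 61.3 against 239 (−1.96). The steroid-metabolising *Akr1c18* (−1.96), the schlafen *Slfn5* (−1.84), the semaphorin *Sema3d* (−1.80) and the adhesion gene *Cadm3* (−1.80) were also among them. Against the depth-weighted reference *Edn1* stood at −1.97, *Akr1c18* at −1.27, *Ace* at −1.70, *Entpd2* at −1.56, *Lbp* at −1.61 and *Cadm3* at −1.35. Without called doublets *Edn1* stood at −4.17, *Ace* at −2.61, *Entpd2* at −2.70, *Lbp* at −2.74 and *Cadm3* at −2.58.

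The 38 matrix genes summed to 141272 against 171408 CPM, while their median ratio of −0.00 turned sign with the processing. Among them are 7 of the 8 fibroblast genes of the gate, and the 31 others summed to 106849 against 127073 CPM. The fibrillar collagens carried the sum, with *Col1a1* at 33664 against 42611 CPM (−0.34) and *Col3a1* at 25618 against 35098 (−0.45). Both stayed below the reference under every processing tried. Elastin (*Eln*) was much lower, 51.5 against 217 CPM (−2.08), with 17.2% of its UMIs in 1 cell and a depth-weighted ratio of −1.49, and osteoglycin (*Ogn*), a small proteoglycan, stood at 175 against 529 (−1.60). Higher were the tenascins of provisional matrix, *Tnn* at 189 against 67.9 CPM (1.48) and *Tnc* at 1160 against 528 (1.13), with *Loxl2*, a collagen cross-linking enzyme, at 0.79 and *Col12a1*, a fibril-associated collagen, at 0.77. *Tnc* was found in 79.2% of cycling, 38.8% of reference and 8.28% of macrophage reference cells at 5000 UMIs, and its ratio was 0.74, under 2-fold, against the depth-weighted reference. Periostin (*Postn*) stood at 4705 against 4881 CPM, a ratio whose sign turned with the processing. The basement membrane gene *Col4a1* (0.51) owed 16.4% of its UMIs to 1 cell, and its ratio was −0.27 where the 8 fibroblast genes had to reach 3% of UMIs.

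Of 21 contractile and myofibroblast genes listed, 18 were above and 3 below the reference, at 5691 against 3869 CPM and a median of 0.62. The list, called contractile below, also holds genes such as *Spp1*, *Lrrc15*, *Inhba* and *Itgbl1*. It includes *Acta2*, which the gate caps, and the 20 others summed to 5416 against 3775 CPM. At least 2-fold higher were 6 of the 21, *Acta2* among them, beside 32.1% of all genes without a level limit, and 1 was at least 2-fold lower. Of the 17 with a mean of at least 20 CPM, 5 were at least 2-fold higher, again with *Acta2*, beside 5.41% of all. The median against the depth-weighted reference was 0.36. *Acta2*, which the rule limits, stood at 274 against 93.7 CPM (1.55), transgelin (*Tagln*) at 92.3 against 36.7 (1.33) and the tropomyosin *Tpm2* at 154 against 68.4 (1.17). Against the depth-weighted reference *Acta2* stood at 1.05, *Tagln* at 0.61 and *Tpm2* at 0.75, the last 2 under 2-fold. *Spp1*, osteopontin, stood at 606 against 210 CPM (1.53), with a depth-weighted ratio of 0.96, and 69.2% of macrophage reference cells carried it too at 5000 UMIs. *Lrrc15*, a marker of activated fibroblasts, stood at 439 against 285 CPM (0.62) and was found in 82.5% of cycling, 50.9% of reference and 2.46% of macrophage reference cells. *Inhba*, an activin subunit (1.09), rested on 1 cell for 25.8% of its UMIs and stood at 0.23 against the depth-weighted reference. *Itgbl1*, a secreted integrin-like protein, was the 1 gene at least 2-fold lower, at 41.9 against 94.2 CPM (−1.17, under 2-fold in 1 of 11 alternatives).

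Inflammatory genes summed to 11308 against 12010 CPM, with 18 of 27 below the reference. Complement *C3* stood at 119 CPM (110 to 129) against 436 (−1.87), *C4b* at 71.4 against 255 (−1.83) and the eotaxin gene *Ccl11* at 39.1 against 110 (−1.49). Without called doublets *C3* stood at −2.82 and *C4b* at −2.75, and against the depth-weighted reference at −1.42 and −1.51. *Cxcl5*, a neutrophil chemokine, was higher at 324 against 159 CPM (1.03, under 2-fold in 5 of 11 alternatives), and *Cxcl1* and *Cxcl2* stood at 2350.4 against 2135 CPM and 1764 against 1546. The ratio of *Il11* (1.77) came from 40 UMIs, 47.5% of them in 1 cell, and was −2.69 where the 8 fibroblast genes had to reach 3% of UMIs. That of *Saa3* (0.45) had 24.2% of its UMIs in 1 cell and lay between −0.90 and 0.62 under the alternatives, with the sign turned in 3 of 11, the removal of called doublets among them.

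Growth factor and receptor genes stayed near the reference, 1934 against 2051 CPM over 21 genes. Of the PDGF receptors, *Pdgfra*, itself in the gate, stood at 243 against 218 CPM and *Pdgfrb* at 130 against 101. *Tgfb1* was the 1 gene at least 2-fold higher, at 44.8 against 22.3 CPM (1.00), and was under 2-fold in 5 of 11 alternatives. *Fgf2* (−1.02, from 35 UMIs) and *Fgf10* (−1.08, from 6 UMIs) were at least 2-fold lower, but under 2-fold in 3 and 4 of 11 alternatives. Among imprinted genes the summed level was 2714 against 3759 CPM, carried by the long non-coding RNA *Meg3* at 1510 against 2451 (−0.70). Ribosome biogenesis genes were above the reference in 16 of 18 cases without reaching 2-fold, at 2556 against 1844 CPM. Glycolysis genes lay at 3615 against 2916 CPM and chaperones of the endoplasmic reticulum at 7633 against 6271. Immediate early genes, which respond to tissue dissociation, lay at 12911 against 15189 CPM, with *Klf4* at −1.27 and *Klf2* at −1.03. The 83 ribosomal protein genes summed to 105484 against 104627 CPM, nuclear genes of oxidative phosphorylation to 13416 against 11446 and mitochondrially encoded mRNAs to 23404 against 25378.

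The cycling cells were then asked in which fibroblast state they stood, with every gated cell thinned to 5000 UMIs and called cycling at 2 or more UMIs of the 5 genes. That left 5934 cells, 403 of them cycling (6.79%), of which 320 were also among the 344. Of 1682 cells with 2 or more *Pi16* UMIs 1.55% cycled (1.01 to 2.26), against 8.87% (8.03 to 9.76) of the rest, and of 2095 cells with *C3* 2.20% (1.61 to 2.92) against 9.30% (8.40 to 10.3). *Itgbl1* was on the same side, with 2.41% (1.32 to 4.003) of 582 cells against 7.27% (6.59 to 7.997). The share was higher among cells with *Lrrc15*, 10.8% (9.51 to 12.2) of 2090 against 4.60% (3.96 to 5.32), with *Cxcl5*, 14.9% (12.2 to 18.0) of 610 against 5.86%, and with *Tnn*, 15.2% (12.1 to 18.6) of 501 against 6.02%. *Spp1* gave 15.1% of 617 against 5.83%, but 56.4% of macrophages held 2 or more of its UMIs at this depth, against 0.309% or fewer for *Lrrc15*, *Cxcl5* and *Tnn*, and the part of macrophage RNA in its share was not tested. For *Cilp* the intervals overlapped, 4.05% (1.87 to 7.56) of 222 against 6.90%, as they did for *Postn*, which all but 69 cells held at 2 or more UMIs. Before thinning, the cells with *Lrrc15*, *Cxcl5* and *Tnn* were deeper than the rest, with medians of 11874 against 10321 UMIs, 12556 against 10622.5 and 11876 against 10713, and those with *Pi16* and *C3* were shallower, at 9804.5 against 11260.5 and 10082 against 11219. The part of depth in these shares was not tested. Cycling cells were found with each of the 9 genes.

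**Figure D4:**
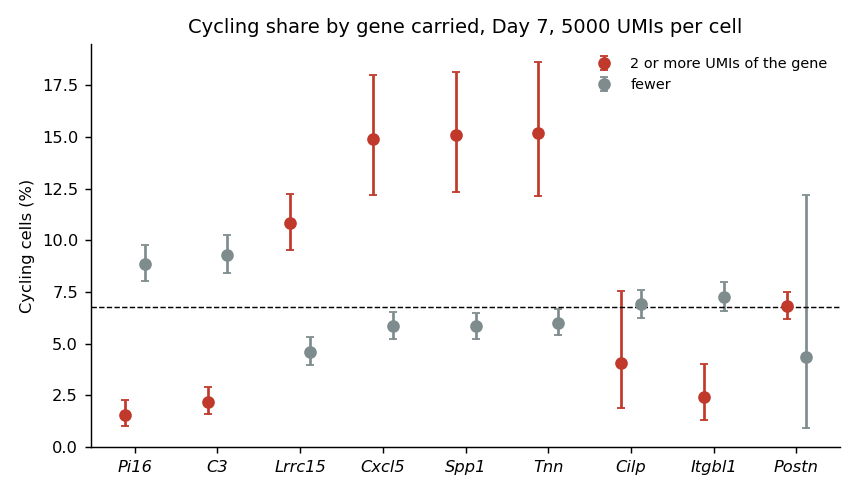
Percentage of cycling cells among gated Day 7 fibroblasts with 2 or more UMIs of each gene (red) and among the others (grey), all cells thinned to 5000 UMIs, with exact 95% intervals; the dashed line marks 6.79% over all cells. *Pi16*, *C3* and *Itgbl1* cells lie below the line and *Lrrc15*, *Cxcl5*, *Spp1* and *Tnn* cells above it.

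Within the 344 cells, the balance of replication against mitotic UMIs ranged widely. Cells were ordered by the share of replication-list UMIs among those of the replication and the 3 mitotic lists and cut into 3 groups of 115, 115 and 114 cells with median shares of 4.29%, 10.7% and 34.0%. The groups, called mitotic, middle and replicative here, are ranges and not cell types, and their depths were close, with medians of 14428, 14807 and 15924 UMIs. In that order the 3 mitotic lists took a median of 0.954%, 0.984% and 0.479% of all UMIs. The replication list took 0.0402%, 0.119% and 0.273%. The mitotic group was lowest in its replication share, and its mitotic share was not above that of the middle group. Genes outside the ordering lists differed between the 3 groups. Those expressed together with the ordering lists differ by the choice of order, and their values describe the groups without testing anything. In the order mitotic, middle and replicative, *Ccnb1* stood at 207, 101 and 22.6 CPM, *Ccnb2* at 179, 85.1 and 16.8, and *Ccna2* at 160, 108 and 50.4. *Ccne2* took the opposite course, at 1.74, 8.96 and 88.7 CPM, as did *E2f1* at 8.68, 16.2 and 63.5, the chromatin remodeller *Hells* at 8.10, 23.0 and 139, and *Rrm2* at 13.9, 40.9 and 90.8. *Ccnd1*, which did not stand out over all cycling cells, stood at 15.6, 22.4 and 32.0 CPM, and *Cdk6* at 23.7, 26.9 and 56.2. The defining genes themselves leaned to mitosis, *Cenpf* at 523, 251 and 55.1 CPM and *Ube2c* at 624, 408 and 111, while *Mki67* stood at 583, 619 and 279 and *Top2a* at 503, 593 and 301. The 5-gene sum had medians of 32, 30 and 12 UMIs, and the replicative group lay nearest to the limit.

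Of the 37 matrix genes with a mean of at least 20 CPM, 1 was at least 2-fold higher in the replicative group (*Col4a1*, at 74.7, 81.7 and 157 CPM) and 1 in the mitotic group (*Eln*), beside 1.47% and 1.22% of 5513 genes outside the ordering lists. Without the cell richest in the gene, a choice made after seeing the data, *Col4a1* stood at 109 CPM in the replicative group and *Eln* at 63.3 CPM in the mitotic group, giving ratios of 0.55 and −0.98, the second just under 2-fold. *Col1a1* stood at 34800, 33313 and 32963 CPM, *Postn* at 4715, 4965 and 4452, *Tnn* at 194, 194 and 178 and *Tagln* at 85.1, 91.8 and 99.2. *Eln* was highest in the mitotic group, at 90.3 against 34.7 and 32.0 CPM, and *Pdgfra*, a gene of the gate, stood at 304, 251 and 180 CPM. *Ereg*, the EGF receptor ligand epiregulin, was higher in the replicative group, at 42.8, 84.0 and 139 CPM. The nucleolar *Npm1* was higher there by under 2-fold, at 487, 634 and 939. At the same level limit, 1 of 15 growth factor and receptor genes and 3 of 14 ribosome biogenesis genes were at least 2-fold higher there. So were 1 of 17 contractile and 1 of 25 inflammatory genes, beside the same 1.47% of genes outside the ordering lists.

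**Figure D5:**
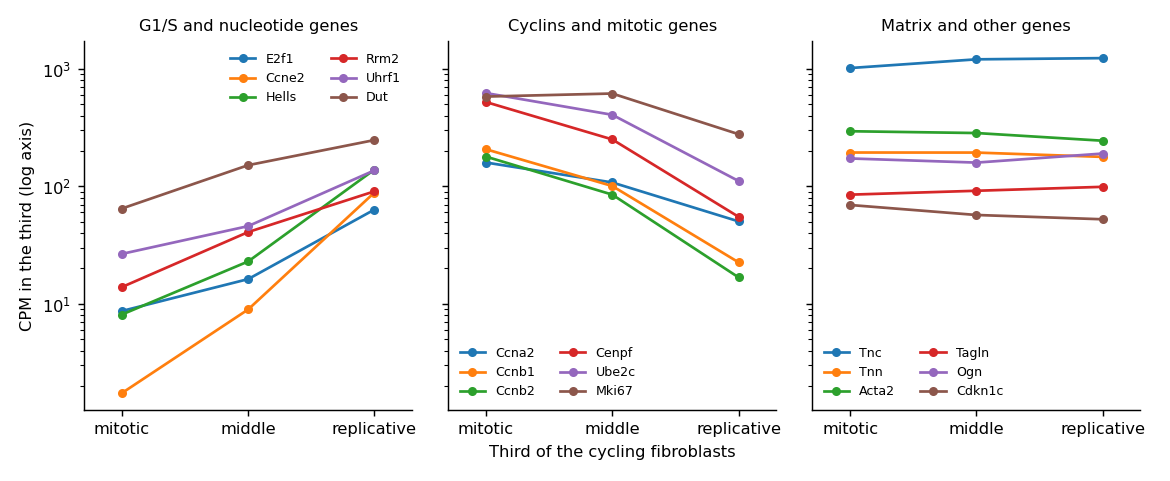
CPM (log axis) in the mitotic, middle and replicative groups of the 344 cycling fibroblasts for 6 genes of S phase entry and nucleotide supply, 6 cyclin and mitotic genes, and 6 other genes. *Ccne2* climbs from 1.74 to 88.7 CPM and *Ccnb1* drops from 207 to 22.6, while *Tnn* and *Tagln* stay level.

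In the libraries of Days 3 and 14, cells were chosen by the same rule, so the 5 defining genes and the genes expressed with them are higher there by that choice. Of the 302 genes higher on Day 7, 301 had at least 10 UMIs on Day 3 and 241 (80.1%) were at least 2-fold higher there, beside 5.52% of all genes. On Day 14 it was 256 of 302 (84.8%), beside 7.62% of all. Without the genes of the gate and of the cycle lists it was 128 of 187 (68.4%) on Day 3 and 144 of 188 (76.6%) on Day 14. That set still holds genes expressed with the 5 that belong to no list, such as *Hist1h1b* and *Pimreg*. The choice of cells therefore shapes it too, and the share of all genes was not computed for it. For the lower genes the share was smaller, 45 of 88 (51.1%) on Day 3 and 33 of 89 (37.1%) on Day 14, beside 1.78% and 1.88% of all, although 85 were lower on each of these days. *Ccnb1* stood at 79.1 against 0.540 CPM on Day 3, 107 against 0.954 on Day 7 and 79.7 against 0.592 on Day 14. *Pclaf* stood at 244 against 4.50, 282 against 1.92 and 321 against 0.657 CPM.

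Genes outside the cycle were compared in the same way. For Days 3 and 14 the ratios were not computed without called doublets or against a depth-weighted reference. Cycling cells were deeper there too, with medians of 65889 against 37509 UMIs on Day 3 and 15252 against 10530 on Day 14. Called doublets were 25 of the 49 cycling cells of Day 14. *Pi16* stood at 142 against 517 CPM on Day 3 (−1.86), at 52.6 against 307 on Day 7 (−2.54) and at 118 against 280 on Day 14 (−1.25). *C3* stood at 149 against 512 (−1.78), 119 against 436 (−1.87) and 47.0 against 134 (−1.51). *Eln* stood at 25.3 against 99.5 (−1.98), 51.5 against 217 (−2.08) and 384 against 1420.0 (−1.89), a like ratio at different levels. Other genes low on Day 7 were not low on every day. *Pcolce2* stood at 47.2 against 46.8 CPM on Day 3 (0.01) and 54.9 against 210.4 on Day 14 (−1.94), and *Akr1c18* at 9.43 against 19.4 on Day 3 (−1.04) and 54.9 against 47.0 on Day 14 (0.22). *Edn1* had a ratio of −0.16 on Day 3, from 21 UMIs in all, and −1.63 on Day 14. *Acta2* was above the reference on each day, by 1.23, 1.55 and 1.97, and *Tagln* by 2.96, 1.33 and 1.19, where 1 cell of Day 14 held 52.4% of the cycling UMIs. *Tnc* stood at 720 against 499 CPM, 1160 against 528 and 251 against 162. *Cxcl5* was below the reference at 2001 against 2316 CPM on Day 3, and on Day 14 a single cell gave 70.4% of its UMIs. *Ccnd1* was at least 2-fold higher on Day 3, at 24.9 against 10.98 CPM, and *Mest*, *H19* and *Dlk1*, imprinted genes, had ratios of 2.23, 1.08 and 1.14 on Day 3 beside 0.09, 0.10 and 0.24 on Day 7. *Mest* and *Dlk1* were under 2 CPM on Day 3.

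Among *Acta2*-high fibroblasts of Day 7, the 61 cycling cells were set against 219 with a sum of 0 or 1. These cells and the cycling macrophages below were chosen by the same sum of the defining genes. Genes expressed with the defining genes are therefore higher by that choice, and the cycle lists were higher again. The *Pi16*, contractile and matrix lists lay closer to their reference, the *Pi16* list now above it. Both *Acta2*-high groups had to hold 0.15% or more of their UMIs as *Acta2*. That rule bears on the contractile list, which includes *Acta2*, and its part there was not tested. The kinetochore list stood at 1489 against 126 CPM and the replication list at 1302 against 360. The cycle inhibitors differed little, at 1491 against 1399.7 CPM. The *Pi16* list stood at 538 against 468 CPM, the contractile list at 13689 against 13552 and the matrix list at 126017 against 130046. Genes of the *Pi16* list went both ways, *Pi16* at 10.2 against 20.6 CPM (−1.02) and *Scara5* at 8.14 against 3.32 (1.30). *Tnc* stood at 2284 against 2249 CPM and *Acta2* at 3072 against 2743. Pericyte markers summed to 181 CPM in the 61 cells and 165 CPM in the 219, with highest cells of 0.533% and 0.860% of UMIs, and their part in the contractile list was not tested. Mast cell markers summed to 127 CPM in the 61 cells and 0.737 in the 219, with 56 cells at 0 and 1 cell holding 1.24% of its UMIs as such. In the 38 cycling macrophages the cycle lists other than the inhibitors were likewise higher than in the 5132 macrophages of the reference, with the kinetochore list at 2010 against 110 CPM, the replication list at 2686 against 363 and the spindle list at 7942 against 765. The cycle inhibitors stood at 2599 against 2827 CPM. *Ccnd1* stood at 132 against 51.2 CPM in macrophages (1.37).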

How the data were processed

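Single-cell suspensions of wound skin were sequenced with the 10x 3′ v3.1 chemistry, 1 library a day for Days 3, 7 and 14. The deposited files hold raw UMI counts per gene and barcode, made by the authors, and the submitters' processing notes name Cell Ranger 6.0.0 and the mm10 build. The annotation is not given in the sources used here. Each file lists 32285 genes, and the libraries held 38133650, 120940799 and 112713257 UMIs in 5158, 22924 and 16611 barcodes.

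From these counts, cells were gated as the report states and UMIs were summed over groups and scaled to CPM in Python 3.11.15 with numpy 2.4.6, pandas 2.3.3 and scipy 1.17.1. A gene was counted as tested at a mean of 20 CPM or more over both groups and as different at 2-fold. With 1 library a day no test was possible. Genes with no UMI in a group were set to 3 UMIs. Intervals are exact (Poisson for CPM, Clopper-Pearson for shares) and cover counting error only. Doublets were called with scikit-learn 1.9.0 from simulated mixtures of barcodes with at least 500 UMIs and 200 genes, and removed only in an alternative. Macrophages were gated by *Lyz2*, *Tyrobp* and *Fcer1g* at 0.5% or more of UMIs, with *S100a9* under 0.1% and the 8 fibroblast genes under 0.3%. The ratio step was tested on simulated data. Named genes are members of the lists and the 15 highest and 15 lowest by size. The members and lists were chosen with earlier results of these data known. Promoters came from RefSeq on GRCm38.p6, and symbols without an entry were left out. Not every listed gene is named, and a few results are not reported here.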

Additional observations from a re-analysis of the deposited data

Results flagged for a closer look

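*Spp1*, osteopontin, had opposite directions in the cycling cells of fibroblasts and macrophages on Day 7. Its log2 ratio of cycling over reference CPM was 1.53 in fibroblasts (606 against 210 CPM) and −1.73 in macrophages (613 against 2035 CPM, 38 against 5132 cells). Each side is 1 library, and the difference between the cell types was not tested.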

How the results depend on the processing

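No paired analysis was possible because each day had 1 library. The number of genes at least 2-fold higher, 302, was 667 with a level limit of 5 CPM and 6500 without one, and between 228 and 354 under the other alternatives. The number at least 2-fold lower, 89, was 183 and 730 under those limits, 152 with the 50 most abundant genes left out of the scaling, 136 with the median of ratios, 48 with the depth-weighted reference and 141 without called doublets. Scaling by the median of ratios made 62.6% of the different genes higher, against 77.2%. The depth-weighted reference shared 248 of the 302 higher and 45 of the 89 lower genes.

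The Day 7 share of 5.38% was 8.05% and 6.79% after thinning to 2000 and 5000 UMIs, 4.16% with 10 or more UMIs and 4.43% without called doublets. The Day 3 share of 43.3% was 35.3%, 31.7% and 38.0% under the first 3 of these and 25.3% with a limit of 0.05% of UMIs. The Day 14 share of 0.682% was 1.63% and 0.965% after thinning and 0.364% without called doublets. The *Acta2*-high share of 18.9% was 26.3%, 24.9% and, with 10 or more UMIs, 14.2%. The causes were not tested. The part of depth was not tested either, and 1 library a day leaves day and library inseparable.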
